A study of Mus musculus with 12 samples.

Results

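The genes described here are the replication-dependent core histone genes of the mouse, taken as every listed gene whose symbol is H2ac, H2bc, H3c or H4c followed by a number. They were 54 of the 15803 genes in the files, with 15 in the H2A class, 15 in H2B, 12 in H3 and 12 in H4, and by RefSeq positions 45 of them lie on chromosome 13 and 9 on chromosome 3. The values came from KPC cells, a mouse line of pancreatic ductal adenocarcinoma established from genetically engineered mice in which Pdx1-Cre acts in the pancreatic lineage. Cells received PBS, or cisplatin (Cis), a platinum drug that crosslinks DNA, at 20 μM for 6 h or 21 h. Ribosome footprints (the mRNA pieces covered by ribosomes after RNase digestion) and RNA (RNA-seq) were sequenced from each of these 3 groups, with 2 libraries per assay and group and 12 libraries in all. Every library came from this single line, the lysis buffer of all samples held cycloheximide, which stalls ribosomes, and the labels call the controls untreated without a time, so the same PBS libraries served both times.

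Each nucleosome wraps DNA around an octamer of H2A, H2B, H3 and H4. The replication-dependent genes that supply these proteins are transcribed in S phase, lie in clusters with many near-identical copies, and give mRNAs that end in a stem-loop in place of a poly(A) tail. The stem-loop binding protein SLBP carries these mRNAs through 3′ end processing, export, translation and decay, NPAT drives their transcription downstream of cyclin E and CDK2, and stalled replication is known to speed their degradation. Replacement histones such as H3.3 and H2A.Z are made outside S phase from ordinary polyadenylated mRNAs.

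Footprint libraries held 3375480 to 5204127 reads and RNA libraries 1985344 to 2901692, of which 3 genes (Lars2, Tmem38b and Mettl26) took 51.8% to 56.6%. The core histone genes took 12778 to 34788 footprint reads and 1465 to 3169 RNA reads per library, so RNA values and the ratios made from them rest on fewer reads than the footprint values. RNA of the epithelial keratins Krt8 and Krt18 was between 421 and 592 RPKM (reads per kilobase of feature, scaled to library size) in every RNA library, Krt7 and Epcam were at 2.58 RPKM or less, and Ptprc, Adgre1, Cd3e, Pecam1, Cdh5, Ptf1a and Cpa1, which mark leukocytes, endothelium and acinar cells, were at 0. The 4 leukocyte markers summed to between 0.403 and 1.026 RPKM in PBS, 0.0 at 6 h and between 2.13 and 4.27 at 21 h, all from Cd68 (at most 9 reads). The 4 acinar markers summed to at most 2.80 RPKM and the 5 fibroblast markers to at most 1.48, both in PBS. The summed RNA of 7 epithelial markers was 1471 to 1527 RPKM in PBS, 1412 to 1472 at 6 h and 1322 to 1368 at 21 h. Sources used here do not state whether reads that match several histone copies were kept, split or dropped. The level of any single copy is therefore uncertain, and class sums are given first. If such reads were dropped or counted more than once, class sums, shares and ratios are affected too. The sources also do not state whether RNA was selected by poly(A), which would leave out mRNAs without a tail. Class sums do not remove this limit on the RNA values and ratios. In whole cultures, fewer cells in S phase and less histone mRNA per cell cannot be told apart.

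Upstream sequence was compared because many members moved together. RefSeq promoter windows of GRCm38.p6 were matched for 49 of the 54 genes (no entry was matched for H2bc21, H2bc4, H3c1, H3c7 and H4c14). Within 250 bases upstream of the start, and on either strand, the letters CCAAT were found in 39 of 49 members (79.6%) against 37.5% of 27025 genes, and TATAAA in 24 of 49 (49.0%) against 14.3%. CCAAT was in 15 of 15 H2A windows, 13 of 13 H2B windows and 8 of 10 H3 windows, but in 3 of 11 H4 windows (27.3%), whereas TATAAA was spread over H2A (7 of 15), H2B (7 of 13), H3 (4 of 10) and H4 (6 of 11). A match is a description of letters only. The 120 bases before the start are shown for the leading footprint gene of H2A, H2B and H3, for H4c11, whose footprints fell at 6 h, and for H2ac10, whose footprint values ran the other way at 6 h. Capitals mark TATAAA and CCAAT, or ATTGG where CCAAT is on the opposite strand.
H2ac4 (chr13:23750968-23751087, plus strand): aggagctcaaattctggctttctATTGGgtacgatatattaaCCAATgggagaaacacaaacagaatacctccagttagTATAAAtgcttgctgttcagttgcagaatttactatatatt
H2bc3 (chr13:23746614-23746733, plus strand): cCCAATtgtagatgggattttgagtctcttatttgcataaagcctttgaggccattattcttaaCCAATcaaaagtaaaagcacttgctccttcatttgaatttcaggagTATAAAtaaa
H3c2 (chr13:23752225-23752344, plus strand): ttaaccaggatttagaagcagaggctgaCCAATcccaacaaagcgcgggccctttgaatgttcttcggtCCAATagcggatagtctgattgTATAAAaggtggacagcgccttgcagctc
H4c11 (chr13:21734914-21735033, plus strand): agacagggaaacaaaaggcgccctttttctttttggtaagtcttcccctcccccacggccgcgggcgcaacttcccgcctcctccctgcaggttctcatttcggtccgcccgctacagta
H2ac10 (chr13:23533755-23533874, plus strand): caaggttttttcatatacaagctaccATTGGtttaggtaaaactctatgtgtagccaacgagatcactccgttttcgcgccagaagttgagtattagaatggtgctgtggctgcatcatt

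In these windows the TATAAA of H2ac4 began 41 bases before the start, that of H3c2 began 29 bases before it and that of H2bc3 began 10 bases before it. H2ac4, H2bc3 and H3c2 each held 2 CCAAT matches when both strands were read. H2ac10 held 1, on the opposite strand, and H4c11 held neither set of letters in the 120 bases shown.

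Footprint reads were assigned unevenly to the copies within each class. Near-identical copies may share reads, so these shares need not show which copies the ribosomes were on. Over the 6 footprint libraries, H2bc3, H2bc18 and H2bc11 together took 90.2% of H2B reads, H3c2, H3c4 and H3c3 took 78.0% of H3 reads, H2ac4, H2ac20 and H2ac6 took 73.2% of H2A reads, and H4c14, H4c4 and H4c6 took 63.5% of H4 reads. In RNA the same genes took 64.7%, 44.4%, 44.8% and 61.0%. At the low end, H2ac18 had no footprint read in any library but 9 to 28 RNA reads, H3c14 and H3c15 had no footprint read and 0 to 2 RNA reads, and H2bc1 had 0 to 2 reads in each library. A mean of at least 1 scaled RPKM was reached by 50 members in footprints (14 H2A, 14 H2B, 10 H3 and 12 H4) and by 51 in RNA, and the members under it enter the class sums but no test.

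Footprints of all 4 classes were lower after 6 h of Cis than in PBS. The summed H2A class was lowest relative to its control, a rank that rested on H2ac4. The summed H2A footprint level (scaled RPKM, the deposited RPKM brought to a common scale by median of ratios) was 2335 and 1887 in the PBS libraries, 1006 and 993 at 6 h, and 2110 and 2006 at 21 h. That of H3 was 2095 and 1871 in PBS, 1122 and 1107 at 6 h, and 1378 and 1443 at 21 h. H2B stood at 8484 and 6939 in PBS, 5151 and 4900 at 6 h, and 7558 and 7912 at 21 h. For H4 the level was 5523 and 5394 in PBS, 3770 and 3561 at 6 h, and 5506 and 5514 at 21 h. At 6 h every library of every class was therefore below both PBS libraries, and the group means were 47.4% of PBS for H2A, 56.2% for H3, 65.2% for H2B and 67.1% for H4. At 21 h the H2A, H2B and H4 levels overlapped PBS, at 97.5%, 100.3% and 100.9% of it, and H3 alone of the 4 classes stayed below both PBS libraries, at 71.1%. With 2 libraries against 2, no exact two-sided permutation test can go below p = 0.333, so the class sums carry no test.

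Whole reads recovered from the deposited values were also summed by class, beside the sums of scaled RPKM above. H2A had 4735 and 3339 footprint reads in PBS, 1833 and 1302 at 6 h and 3076 and 2758 at 21 h. H2B had 16708 and 11927 reads in PBS, 9118 and 6244 at 6 h and 10699 and 10564 at 21 h. H3 had 4453 and 3470 reads in PBS, 2144 and 1523 at 6 h and 2106 and 2079 at 21 h, and H4 had 8892 and 7579, then 5456 and 3709, then 6371 and 6018. The H2A difference at 6 h leaned on 1 gene, since without H2ac4 the log2 change of the class was −0.76 in place of −1.08. That is a smaller fall than the −0.83 of the whole H3 class.

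**Figure D1:**
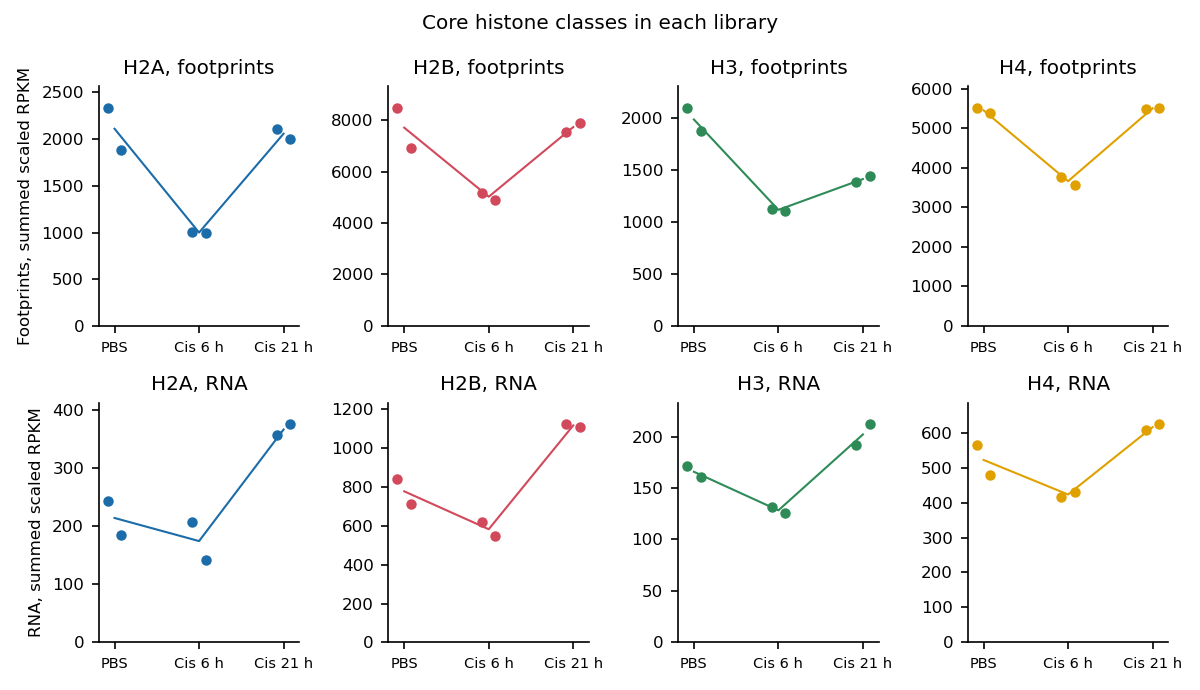
Summed scaled RPKM of each core histone class (y axis) in PBS, at 6 h and at 21 h of Cis (x axis), in footprints and in RNA, with 1 point per library and a line joining the group means. In footprints all 4 classes are lowest at 6 h, with H2A at 47.4% of PBS, and in RNA all 4 are highest at 21 h.

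Among single genes at 6 h, 20 of 50 tested members had fewer footprints than in PBS at an adjusted p under 0.05 from limma (called), and 0 had more. The voom fit on recovered reads called 25 members lower and 1 higher, where it called 822 of all genes lower and 454 higher. By limma, 0.991% of all 10390 genes tested were called lower and 1.05% higher. By class, 8 of 14 H2A, 3 of 14 H2B, 4 of 10 H3 and 5 of 12 H4 genes were called lower, with median log2 changes of −0.60, −0.62, −0.78 and −0.41, against −0.01 over all genes tested. Both 6 h libraries lay below both PBS libraries for 38 of 50 members, where this held for 28.6% of all genes tested. The calls are fragile to the libraries. Fewer members, and fewer of all genes, were called without either PBS library or without either 6 h library, which leaves 1 library in that group. When the variance was not allowed to depend on the level, 0 members and 0 of all 10390 genes were called. Without 6 h replicate 2 the calls were lost over all genes as well, while the sizes stayed close. H2ac4, H4c2, H4c11, H3c4, H3c2 and H2bc3 then stood at −1.54, −0.95, −0.93, −1.09, −0.85 and −0.85.

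H2A genes included the largest decreases in footprints. H2ac4, the H2A gene with the most footprints, stood at 1003 and 829.5 scaled RPKM in PBS and at 313 and 272 at 6 h, and fell by 1.64 (SE 0.11) on the log2 scale (adjusted p = 0.00254 from limma). H2ac6 stood at 229 and 151 in PBS and 48.7 and 61.6 at 6 h, and fell by 1.75 (SE 0.19, adjusted p = 0.00726 from limma). H2ac8, at 199 and 133 in PBS and 60.8 and 43.4 at 6 h, fell by 1.66 (adjusted p = 0.0142 from limma). None of these 3 genes overlapped between groups. H2ac20, the next H2A gene by footprints and a member on chromosome 3, fell by 0.65 (SE 0.11), from 526 and 426 to 319 and 287 scaled RPKM (adjusted p = 0.0343 from limma). H2ac7, which was named after its values were seen, fell by 1.97 (SE 0.19, adjusted p = 0.00469 from limma). H2ac10, named for the same reason, had the highest change of the 5 members above 0 (H2ac10, H2ac21, H4c12, H4c17 and H4c18, none called): it stood at 41.8 and 60.3 scaled RPKM in PBS, 72.8 and 130.1 at 6 h, and 34.9 and 36.3 at 21 h, with a log2 change of 0.95 (SE 0.26) at 6 h that did not pass (adjusted p = 0.0947 from limma).

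Of the 3 genes with the most footprints in each of the other classes, 2 of H2B, 2 of H3 and 2 of H4 were called lower. H2bc3 stood at 2667 and 2466 scaled RPKM in PBS and 1422 and 1363 at 6 h, and fell by 0.88 (SE 0.07, adjusted p = 0.00415 from limma). H2bc11 fell by 0.64 (SE 0.10, adjusted p = 0.029 from limma), whereas H2bc18, at 2389 and 1745 in PBS and 1655 and 1600.2 at 6 h, had a log2 change of −0.33 that did not pass (adjusted p = 0.194 from limma). Of the major H2B genes, H2bc18 was thus the one without a call, and its PBS libraries were also the farthest apart. H3c2 fell from 765 and 738 to 417 and 426, by 0.83 (SE 0.08, adjusted p = 0.00469 from limma), and H3c4 from 612 and 583 to 279 and 298, by 1.05 (SE 0.09) with adjusted p = 0.00415 from limma. H3c3, the third H3 gene by footprints, had a log2 change of −0.44 and did not pass (adjusted p = 0.137 from limma). In H4, H4c2 fell by 1.08 (SE 0.10) and H4c11 by 1.02 (SE 0.09), both with adjusted p = 0.00415 from limma. H4c14 fell by 0.69 (SE 0.09, adjusted p = 0.0212 from limma) and H4c6 by 0.65 (SE 0.10, adjusted p = 0.0284 from limma), while H4c4 changed by −0.37 without passing (adjusted p = 0.0629 from limma).

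**Figure D2:**
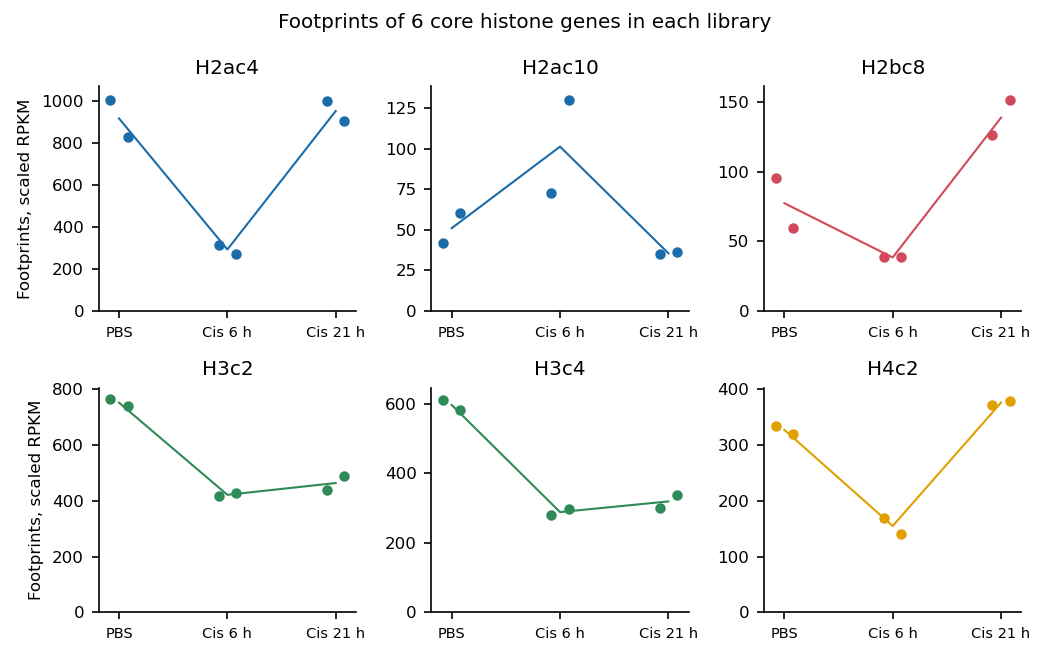
Footprint level (scaled RPKM, y axis) in each library of PBS, 6 h and 21 h (x axis) for 6 core histone genes, with 1 point per library and a line joining the group means. H2ac4, H2bc8 and H4c2 are low at 6 h only, H3c2 and H3c4 stay low at 21 h, and H2ac10 is highest at 6 h.

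RNA of the same genes moved less at 6 h and no member passed. The summed RNA level of H2B was 843 and 712 scaled RPKM in PBS, 619 and 546 at 6 h, and 1122 and 1111 at 21 h. That of H4 was 566 and 478 in PBS, 417 and 429.6 at 6 h, and 608 and 624 at 21 h. H3 stood at 171 and 160.4 in PBS, 131 and 125 at 6 h, and 192 and 212 at 21 h. These 3 classes were below both PBS libraries at 6 h, at 74.9%, 81.1% and 77.4% of the PBS mean. H2A, at 243 and 185 in PBS and 207 and 141 at 6 h, overlapped PBS with a mean of 81.4%, and reached 357 and 375 at 21 h. Of 51 members tested, 0 were called at 6 h by limma, where 0.0% of all 9459 genes tested were called lower and 0.0% higher; 18 members had an unadjusted p under 0.05, as did 536 of all genes with higher and 550 with lower values. The voom fit on recovered reads called 3 members lower (H2bc14, H4c11 and H4c14, named after their values were seen), where it called 172 of all genes lower and 56 higher. The median log2 change of the members was −0.41, 44 of 51 were below 0, and 24 lay below PBS in both libraries, where this held for 23.0% of all genes.

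At 21 h histone RNA was above PBS in all 4 classes while footprints were not. RNA means were 171.1% of PBS for H2A, 143.6% for H2B, 121.9% for H3 and 118.0% for H4, with no overlap between the 21 h and PBS libraries in any class. Of 51 members tested, 17 were called higher in RNA and 0 lower, where 11.6% of all genes tested were called higher and 12.2% lower. They were 7 of 15 H2A, 5 of 14 H2B, 3 of 10 H3 and 2 of 12 H4 genes, and 30 of 51 members lay above PBS in both libraries, where this held for 33.3% of all genes. Median log2 changes were 1.02 for H2A, 0.50 for H2B, 0.04 for H3 and 0.23 for H4. Fewer members, and fewer of all genes, were called without PBS replicate 2 and without either 21 h library. With a variance that did not depend on the level, 7 members were called. Over all genes that setting called 712 higher and 893 lower, against 1094 and 1154.

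The RNA increase at 21 h was seen in several of the genes that carried most footprints and in minor ones. H4c14, the H4 gene with the most footprints, stood at 64.2 and 55.7 scaled RPKM of RNA in PBS, 41.7 and 43.8 at 6 h, and 101 and 96.2 at 21 h, and rose by 0.72 (SE 0.11) on the log2 scale (adjusted p = 0.00161 from limma). H2bc8 rose by 0.95 (SE 0.14), from 23.3 and 23.3 to 47.9 and 42.9 (adjusted p = 0.00183 from limma). H2ac24, with 5.98 and 6.39 in PBS and 12.97 and 15.6 at 21 h, rose by 1.14 (SE 0.19, adjusted p = 0.00275 from limma), a call that the voom fit did not make. In all 3 genes both 21 h libraries were above both PBS libraries. H3c3 rose by 1.16 (SE 0.20, adjusted p = 0.00336 from limma), H2ac8 by 1.034 (SE 0.19, adjusted p = 0.00421 from limma) and H2ac4 by 0.66 (SE 0.12, adjusted p = 0.00501 from limma). H2bc3, H2bc11 and H2bc18 rose by 0.49, 0.76 and 0.52, with adjusted p = 0.00803, 0.00801 and 0.00815 from limma.

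The RNA rise was not seen in every gene with many footprints, and H3c2 and H3c4 had RNA near PBS at 21 h with footprints below it. The RNA of H3c2 was 19.3 and 24.3 scaled RPKM in PBS and 14.1 and 30.6 at 21 h (log2 change −0.05, adjusted p = 0.922 from limma), on 21 to 44 reads per library. The RNA of H3c4 was 27.7 and 22.2 in PBS and 21.7 and 28.3 at 21 h (log2 change −0.0014, adjusted p = 0.996 from limma), on 43 to 84 reads per library. Their footprints at 21 h were 439 and 488 for H3c2 and 299.8 and 339 for H3c4, in each case below both PBS libraries. H3c2 fell by 0.70 (SE 0.08, adjusted p = 0.000343 from limma) and H3c4 by 0.90 (SE 0.09, adjusted p = 0.000161 from limma). These calls held in every alternative that was run, and H3c2 and H3c4 were the only H3 genes called in footprints at 21 h. H4c4 had values of a like kind but smaller size, with RNA at 67.0 and 57.2 in PBS and 63.7 and 55.1 at 21 h, and footprints at 1057 and 1094 in PBS and 923 and 1022 at 21 h, both below PBS (log2 change −0.15, adjusted p = 0.198 from limma, not passed).

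Over all members, footprints at 21 h gave 4 genes called higher and 4 called lower of 50, where 18.9% of all genes tested were called higher and 20.2% lower, and the median log2 change was 0.03. The genes called higher were all H2B: H2bc8 stood at 95.5 and 59.3 scaled RPKM in PBS and 126 and 151 at 21 h, and rose by 0.87 (SE 0.20, adjusted p = 0.00854 from limma), or by 0.53 without PBS replicate 2. H2bc9 rose by 1.12 (SE 0.32, adjusted p = 0.0224 from limma), but its PBS libraries were far apart at 104 and 43.6, and the change was 1.74 without PBS replicate 1 and 0.50 without PBS replicate 2. H2bc14 and H2bc22, named after their values were seen, rose by 0.53 and 0.93 (adjusted p = 0.0419 and 0.0276 from limma), the latter on 2 to 9 reads per library. Besides the H3 pair, H2ac11 fell by 0.76 (SE 0.19, adjusted p = 0.0125 from limma) and H2bc11 by 0.38 (SE 0.10, adjusted p = 0.0184 from limma). The H2ac11 call was lost without either PBS library or 21 h replicate 2 (−0.51), the H2bc11 call without PBS replicate 1 (−0.25) or 21 h replicate 1 (−0.32), and the H2bc9 call without either 21 h library (1.17 and 1.07). No H4 gene was called. Fewer members, and fewer of all genes, were called without either PBS library or without either 21 h library. With a variance that did not depend on the level, 5 members were called in place of 8. Over all genes that setting called 1633 higher and 1908 lower, in place of 1959 and 2100.

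**Figure D3:**
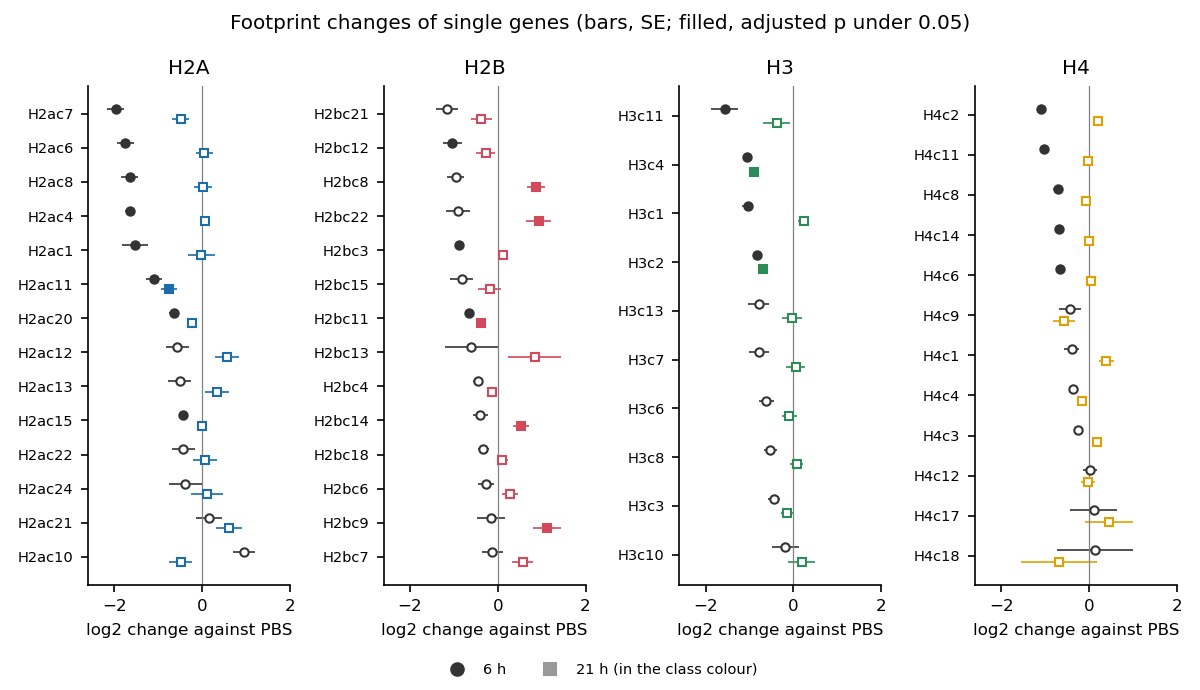
Log2 change in footprints against PBS (x axis) of each tested core histone gene (y axis, 1 panel per class) at 6 h (circles) and 21 h of Cis (squares), with bars for the SE and filled symbols for an adjusted p under 0.05. Medians at 6 h are −0.60 for H2A, −0.62 for H2B, −0.78 for H3 and −0.41 for H4, and at 21 h most genes lie around 0.

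Within H3 the genes were also grouped by the protein they encode. By RefSeq synonyms, H3c1, H3c8, H3c10 and H3c11 encode H3.1 and the other 8 encode H3.2, proteins that differ at a single residue. Footprints summed over the H3.1 genes were 56.0% of PBS at 6 h and 111.0% at 21 h, the latter overlapping PBS. Those summed over the H3.2 genes were 56.2% at 6 h and 66.9% at 21 h, with both 21 h libraries below both PBS libraries. The 2 groups of genes therefore had like values at 6 h and unlike values at 21 h, a difference that was not tested because both are class sums over 2 libraries. RNA at 21 h was 113.5% of PBS for the H3.1 genes and 125.9% for the H3.2 genes. The H3.2 sum is mostly H3c2 and H3c4, the only H3 genes called in footprints at 21 h. The other H3.2 genes with footprints overlapped PBS at 21 h. H3c3 stood at 281.8 and 215.1 scaled RPKM in PBS and 232.3 and 215.8 at 21 h. H3c7 stood at 136.4 and 81.9, then 123.7 and 97.2, and H3c6 and H3c13 overlapped as well. The low H3.2 sum at 21 h was thus that of H3c2 and H3c4, not of every H3.2 gene. Without H3c2 the log2 change of the whole H3 class in footprints at 21 h was −0.38 in place of −0.49.

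The 6 h and 21 h comparisons share their PBS libraries, so the direct contrast of 21 h with 6 h, which was added after the files had been seen, was fitted as well. In footprints 32 of 50 members were called higher at 21 h than at 6 h and 1 lower, where 15.0% of all genes tested were called higher and 15.7% lower. In RNA 32 of 51 were called higher and 0 lower, where 7.53% of all genes were called higher and 8.2% lower. Median log2 differences of the members were 0.66 in footprints and 0.93 in RNA. The 1 lower gene was H2ac10, with a difference of −1.44 (SE 0.26, adjusted p = 0.00432 from limma) on 133 and 171 reads at 6 h against 51 and 50 at 21 h. H2ac4 was higher by 1.70 in footprints and 1.16 in RNA, and H2bc8 by 1.83 and 1.62. H3c2 and H3c4 each differed by 0.14 in footprints and did not pass (adjusted p = 0.235 and 0.251 from limma). Fewer members, and fewer of all genes, were called in RNA without either 21 h library. The same held in footprints without either 6 h library or without 21 h replicate 1.

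Ratios of the class sums of footprints to RNA were below PBS in all 4 classes at both times, but at 6 h single genes were spread on both sides of 0. These ratios stand for how heavily the mRNAs were loaded only if the RNA libraries captured mRNAs without a poly(A) tail, which is not known. At 6 h the median log2 change in the ratio was −0.13 over 50 members, of which 30 were below 0, with medians of −0.37 for H2A, −0.39 for H3, −0.07 for H2B and −0.0040 for H4 (6 of 12 below 0). The ratio of class sums for H2A was 9.87 in PBS, where the pairings of libraries ran between 7.78 and 12.6. It was 5.74 at 6 h, with pairings between 4.79 and 7.12, and 5.62 at 21 h, with pairings between 5.35 and 5.91. For H3 the PBS ratio was 12.0 (10.9–13.1), the 6 h ratio 8.69 (8.43–8.95) and the 21 h ratio 6.98 (6.50–7.51). H2B gave 9.92 (8.23–11.9), 8.63 (7.92–9.43) and 6.93 (6.73–7.12) in the same order, and H4 gave 10.5 (9.53–11.6), 8.66 (8.29–9.05) and 8.95 (8.83–9.07). The ranges did not overlap PBS at either time for H2A, H3 and H4, and at 6 h that of H2B did. At 21 h the H2A ratio was lower by 0.81 on the log2 scale, with footprints near PBS and RNA above it, and H3 was lower by 0.78, with footprints below PBS and RNA above it. H2B was lower by 0.52 and H4 by 0.23. Summed over the H3.2 genes the ratios were 16.1 in PBS, 10.9 at 6 h and 8.54 at 21 h, and over the H3.1 genes 3.53, 2.99 and 3.45. The H3.1 RNA rests on 34 to 82 reads per library. Single H3.1 genes went both ways from PBS to 21 h. H3c8 went from 5.10 to 3.08 and H3c11 from 1.58 to 1.05, but H3c1 from 3.38 to 4.43 and H3c10 from 2.13 to 3.12.

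**Figure D4:**
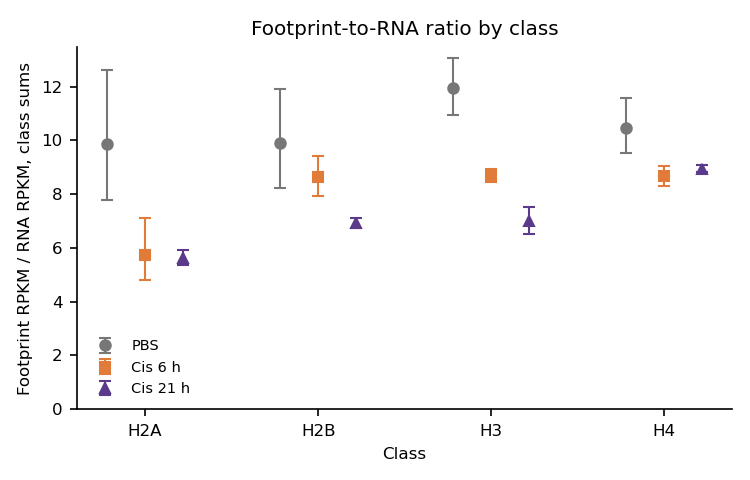
Ratio of summed footprint to summed RNA level (y axis) for each core histone class (x axis) in PBS, at 6 h and at 21 h (symbols), with bars spanning the lowest and highest ratio over the pairings of the 2 footprint and 2 RNA libraries. At 21 h H2A, H2B and H3 lie between 5.62 and 6.98 and H4 at 8.95, all below their PBS values.

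Few single genes passed the test of the ratio. In simulated data that test called 8.86% of the changed genes, so a missing call does not show an unchanged ratio. At 6 h 0 of 50 members were called by limma, where 0.0% of all 9312 genes tested were called lower and 0.0% higher. An unadjusted p under 0.05 from limma was seen for 13 members, and for 340 of all genes with higher and 372 with lower values. The voom fit on recovered reads called 0 members, where it called 4 of all genes higher and 10 lower. H2ac4 had the smallest adjusted p of the 6 h ratios, at −1.14 (SE 0.17, adjusted p = 0.0956 from limma). At 21 h 2 members were called lower and 0 higher, where 0.15% of all genes were called lower and 0.258% higher. The ratio of H2bc11 went from 26.1 in PBS to 12.0 and fell by 1.14 (SE 0.21, adjusted p = 0.0432 from limma). The ratio of H4c14 went from 30.4 to 18.4 and fell by 0.73 (SE 0.14, adjusted p = 0.0451 from limma). Both lay close to the threshold. The calls were lost without either PBS footprint library, either 6 h footprint library, 21 h footprint replicate 2, PBS RNA replicate 2 or 21 h RNA replicate 2. Fewer of all genes were called in these settings as well. The median log2 change of the members was −0.45 at 21 h against −0.04 over all genes tested, with 40 of 50 below 0. Between 21 h and 6 h, 0.591% of all genes were called higher and 0.419% lower, and the members called were H4c2 (1.56 higher, adjusted p = 0.0106 from limma) and H2bc11 (−1.08, adjusted p = 0.0349 from limma). H4c2 had a ratio of 5.83 in PBS, 2.87 at 6 h and 8.46 at 21 h.

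In PBS the members spanned ratios from 0.231 to 113.5, with a median of 5.13 over 50 genes against 3.47 over all 9309 genes with a ratio. Footprint levels were set per length of coding sequence and RNA levels per length of transcript, and the model transcripts of some histone genes are far longer than their coding sequence. H2ac6 had the highest ratio, 113.5, with a coding sequence of 390 bases and a model transcript of 2482. H4c17 had the lowest ratio of the members with at least 20 reads in each assay, 0.483. The median was 3.73 for the 36 members with a transcript under 700 bases and 13.5 for the 14 with a longer one, so ratios were compared between conditions and not between genes. Changes between conditions do not depend on these lengths for a single gene.

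**Figure D5:**
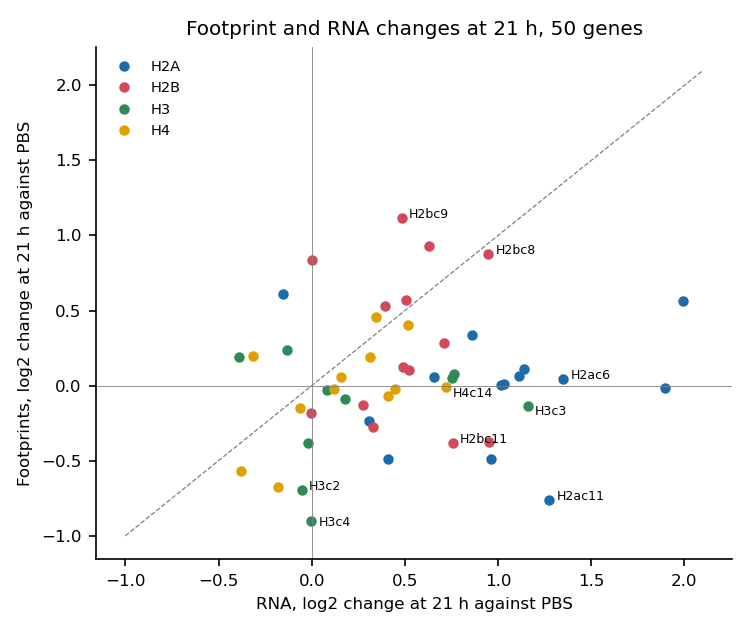
Log2 change in RNA (x axis) and in footprints (y axis) at 21 h against PBS, with 1 point per core histone gene coloured by class and the diagonal of equal change drawn. Most points lie right of 0 and under the diagonal, and H3c2 and H3c4 lie near 0 in RNA and at −0.70 and −0.90 in footprints.

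The make-up of the histone footprints changed with these shifts. H2A made up 11.7% to 12.7% of all core histone footprint RPKM in PBS, 9.11% to 9.40% at 6 h and 11.9% to 12.7% at 21 h. H3 made up 11.4% to 11.6% in PBS, 10.2% to 10.5% at 6 h and 8.33% to 8.55% at 21 h. H2B held between 43.1% and 46.9% and H4 between 29.96% and 34.1% in every footprint library. The H2A share was thus low at 6 h only, and the H3 share was lowest at 21 h. Members on chromosome 3 stood at 70.2% of PBS footprints at 6 h and 101.3% at 21 h, and those on chromosome 13 at 60.0% and 95.3%.

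Many H2A and H2B genes are transcribed away from each other from a common upstream region. RefSeq windows of 8 H2A and H2B pairs lay on opposite strands and shared 220 to 279 bases, and in 7 of them both genes were tested in footprints. At 6 h both log2 changes were below 0 in 7 of 7 pairs. Of all tested genes, 12 of 14 H2A and 14 of 14 H2B were below 0 then, so the count adds little to the fall of both classes. At 21 h both had the same sign in 4 of 7 pairs, where 9 of 14 H2A and 9 of 14 H2B genes were above 0. H2ac8 and H2bc8, for example, stood at −1.66 and −0.96 at 6 h and at 0.01 and 0.87 at 21 h. In RNA at 21 h the same pair stood at 1.034 and 0.95. These values describe the pairs and were not tested as pairs.

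Genes that handle histone mRNA included some called higher in footprints at 6 h and 0 called lower. Slbp, the stem-loop binding protein, stood at 194 and 198 RPKM of footprints in PBS, 267 and 261 at 6 h, and 457 and 458 at 21 h as deposited. The 6 h increase of Slbp was 0.41 (SE 0.08) with adjusted p = 0.0383 from limma. At 21 h the increase was 1.18 (SE 0.08) with adjusted p = 2.2e-05 from limma, and its RNA rose by 1.15 at 21 h (adjusted p = 0.000552 from limma). Of 27 tested genes of histone mRNA processing, decay and transcription, 3 were called higher in footprints at 6 h and 0 lower, where 1.05% of all genes were called higher and 0.991% lower: Slbp and the cyclins E, Ccne1 (0.97, adjusted p = 0.0253 from limma) and Ccne2 (0.59, adjusted p = 0.029 from limma). At 21 h 10 were higher and 1 lower (Ctif, which takes part in cap-dependent translation), and in RNA 11 of 26 were higher and 0 lower, against shares over all genes of 18.9% higher and 20.2% lower in footprints and 11.6% higher and 12.2% lower in RNA. Npat, the transcription factor of histone genes, had footprint changes of 0.32 and 0.36 that did not pass, and its RNA rose by 0.87 at 21 h (adjusted p = 0.0303 from limma). Eri1, an exonuclease that trims histone mRNA ends, rose by 0.55 in footprints at 21 h (adjusted p = 0.0036 from limma). Casp8ap2 and the U7 snRNP proteins Lsm10 and Lsm11 passed at neither time in either assay.

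Of the histone chaperones and deposition factors, 0 of 22 were called in footprints at 6 h by limma (2 at an unadjusted p under 0.05), a count near the shares of 1.05% and 0.991% over all genes. At 21 h 9 were called higher and 2 lower, where 18.9% of all genes were higher and 20.2% lower. Chaf1a, the large subunit of the CAF-1 complex that places new H3 and H4 on replicated DNA, had 24.0 and 27.0 RPKM of footprints in PBS and 100.5 and 97.9 at 21 h as deposited, and rose by 1.91 (SE 0.12, adjusted p = 1.7e-05 from limma). Its partner Chaf1b rose by 0.78 (adjusted p = 0.00676 from limma), the H3 and H4 chaperones Asf1b and Nasp by 0.75 and 0.42 (adjusted p = 0.0038 and 0.0145 from limma), and Hat1, which acetylates new H4, by 0.41 (adjusted p = 0.00659 from limma). The lower ones were Hira (−1.17) and Cabin1 (−0.68), both of the HIRA complex that deposits H3.3 outside replication. In RNA 8 of 22 were called higher at 21 h and 0 lower, where 11.6% of all genes were higher and 12.2% lower.

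Replacement histones, unlike the core classes, were not below PBS at 6 h as a sum. Footprints summed over the 11 listed replacement histones, which include the linker histone H1f0, were 111.2% of PBS at 6 h and 94.2% at 21 h. H2az1 led this sum, at a mean of 4266 RPKM in PBS and 5005 at 6 h as deposited. Of the 9 tested, 6 had log2 changes above 0 at 6 h and 3 below. By limma 0 of the 9 tested were called at 6 h (2 at an unadjusted p under 0.05). At 21 h the centromeric Cenpa (0.64) and H2ax (0.71), the variant phosphorylated at DNA breaks, were called higher, and Macroh2a1, H1f0 and H2az1 lower. The 5 linker histones of S phase, which share the stem-loop mRNA of the core genes, stood at 74.7% of PBS footprints at 6 h and 93.3% at 21 h, with H1f5 (−0.75, adjusted p = 0.029 from limma) and H1f3 (−0.68, adjusted p = 0.0377 from limma) called lower at 6 h. At 21 h H1f3 was called higher, and H1f2, H1f4 and H1f5 lower. Of 22 genes of S phase and replication, 1 was called higher in footprints at 6 h (Cdt1, the licensing factor, 0.61, adjusted p = 0.0377 from limma) and 0 lower, while at 21 h 16 were higher and 1 lower (Pola1, a subunit of DNA polymerase alpha), and in RNA 17 were higher and 1 lower. Over all genes, the shares beside these counts of replacement, linker and S phase genes were 1.05% higher and 0.991% lower in footprints at 6 h, 18.9% and 20.2% in footprints at 21 h, and 11.6% and 12.2% in RNA at 21 h. Their part in the histone values was not tested.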

How the data were processed

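Ribosome profiling and RNA-seq libraries of KPC cells came as 1 table per library, and the deposited values are RPKM that the authors computed per transcript, with coding length for footprints and transcript length for RNA. The submitters' processing notes name cutadapt, STAR and GRCm39, and versions, the read counter and the treatment of multiply matching reads are not given in the sources used here. RPKM values divided by the worth of 1 read gave whole reads for 100% of values (tolerance 0.001), and reads were used for depth and for a voom alternative. Groups follow the labels' treatment and time. Nothing says that libraries of a group came from separate cultures, so p-values measure the spread between these libraries only.

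RPKM were scaled by median of ratios within each assay, genes with a mean under 1 were left out, and limma 3.58.1 (R 4.3.3, eBayes with trend) fitted log2(scaled RPKM + 0.5) over all 6 libraries of an assay. Fold changes are on this log2 scale, which understates changes of low genes. The ratio was the interaction of assay and treatment over 12 libraries. P-values are two-sided, adjusted by Benjamini-Hochberg over all genes tested, with a threshold of 0.05. Sums, counts and plots used Python 3.11.15, pandas 2.3.3, numpy 2.4.6 and matplotlib 3.10.9. The fits were first tested on simulated data with log2 changes of 1 up or down at 21 h. They called 60.5% of the changed genes in footprints, 34.0% in RNA and 8.86% in the ratio. Counting error is covered by none of the ranges given for ratios of class sums.

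The members and the gene lists were chosen with earlier results of these data known. Genes named are the 3 with the most footprints per class, the members with the smallest adjusted p per comparison (at most 6), the highest and lowest ratio in PBS among members with at least 20 reads in each assay, fixed genes of the histone lists and at most 3 called genes per list. The files list 54 of the 58 symbols that RefSeq gives for this pattern, and H2ac14, H2ac19, H2ac23 and H2bc23 were not analysed here. The alternatives tried were other pseudocounts, filters and scaling, no variance trend, only the groups compared, voom on recovered reads, a replicate block, leaving out each library, and class sums without their leading gene.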

Additional observations from a re-analysis of the deposited data

Results flagged for a closer look

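The values below are differences between 21 h and 6 h of Cis on the log2 scale from limma, for members that passed an adjusted p of 0.05 in this contrast. The shared PBS libraries cancel in it and carry no time, so longer time with Cis and longer time in culture cannot be told apart. The contrast was added after the data had been seen.

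In footprints, the H2A genes H2ac4, H2ac6, H2ac8 and H2ac20 were higher at 21 h by 1.70, 1.80, 1.67 and 0.41. The H2B genes H2bc3, H2bc8, H2bc9 and H2bc18 were higher by 1.005, 1.83, 1.27 and 0.43. The H4 genes H4c2, H4c11, H4c6 and H4c14 were higher by 1.28, 0.995, 0.71 and 0.68. In H3, 6 of 10 tested genes were also higher in footprints, but the 3 with the most footprints did not pass, with H3c2 and H3c4 each at 0.14 and H3c3 at 0.30.

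In RNA, H2ac4, H2ac8, H2ac24, H2ac20 and H2ac6 were higher at 21 h by 1.16, 1.44, 1.39, 0.96 and 1.15. H2bc8, H2bc3, H2bc11 and H2bc18 were higher by 1.62, 1.003, 1.34 and 0.76, and H3c3 by 0.91. H4c14, H4c6, H4c17 and H4c11 were higher by 1.20, 0.45, 0.93 and 1.15.

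In the ratio of footprints to RNA, H4c2 was higher at 21 h by 1.56 and H2bc11 had a difference of −1.08. H2bc11 had more RNA at 21 h than at 6 h without a passing difference in footprints (0.26, adjusted p = 0.084 from limma), and H4c2 had more footprints without a passing difference in RNA (−0.28, adjusted p = 0.322 from limma). Causes of these differences were not tested.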

How the results depend on the processing

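RNA depth and 2 libraries per group limit these results, and the causes of the changes below were not tested. Of the values that answer a comparison, 254 kept their size or call under an alternative and 48 moved, and for single genes 279 kept their call, 55 lost it and 6 counts moved. No called value changed sign. Without a low-level filter the members called numbered 7 in footprints at 6 h (main 20), 11 in RNA at 21 h (main 17) and 0 in the ratio at 21 h (main 2). All genes then gave 9 higher and 8 lower (main 109 and 103), 821 and 956 (main 1094 and 1154), and 4 and 4 (main 24 and 14). Without a variance trend the members called numbered 0 in footprints at 6 h, 5 in footprints at 21 h (main 8), 7 in RNA at 21 h and 0 in the ratio at 21 h. All genes then gave 0 and 0, 1633 and 1908 (main 1959 and 2100), 712 and 893, and 0 and 0. The voom fit called 3 members in RNA at 6 h (main 0) and 4 in the ratio at 21 h. Over all genes it called 56 higher and 172 lower in RNA at 6 h, and 74 and 78 in the ratio at 21 h. The 21 h ratio also gave 0 members called with a pseudocount of 0.1, 0 with only the groups compared and 5 with a mean of at least 5 RPKM. Over all genes these settings gave 25 higher and 10 lower, 2 and 1, and 37 and 30.

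Replicate numbers are shared by the groups, but nothing ties same-numbered libraries, and the correlations of their deviations from the group means were between −0.035 and 0.036. With the replicate number as a block, the members called were 14 in footprints at 6 h, 9 in footprints at 21 h, 0 and 19 in RNA, and 2 (H2ac4 and H2ac6) and 3 in the ratio. In the same order, all genes gave 17 higher and 20 lower, 1857 and 2012, 0 and 0, 1068 and 1117, 1 and 3, and 10 and 6.

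Leaving out 1 library at a time gave 0 to 23 members called in footprints at 6 h, 5 to 7 in footprints at 21 h, 0 to 1 in RNA at 6 h, 9 to 20 in RNA at 21 h and 0 to 3 in the ratio at 21 h. The log2 changes of class sums then lay, in footprints at 6 h, between −1.22 and −0.92 for H2A, −0.755 and −0.47 for H2B, −0.91 and −0.75 for H3, and −0.62 and −0.53 for H4. In footprints at 21 h they lay between −0.18 and 0.13 for H2A, −0.13 and 0.16 for H2B, −0.57 and −0.41 for H3, and −0.0035 and 0.031 for H4. In RNA at 6 h they lay between −0.60 and −0.05 for H2A (without 6 h replicate 1 and without 6 h replicate 2), −0.53 and −0.29 for H2B, −0.42 and −0.32 for H3, and −0.42 and −0.18 for H4. In RNA at 21 h H2A lay between 0.59 and 0.98, H2B between 0.41 and 0.65, and H4 between 0.12 and 0.37. The H4 ratio at 21 h lay between −0.35 and −0.11.

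Without the leading gene, class sums in footprints were −0.76 for H2A (main −1.08) and −0.52 for H4 (main −0.57) at 6 h, and −0.38 for H3 at 21 h (main −0.49). Without scaling, H3 RNA was −0.44 at 6 h (main −0.37) and 0.37 at 21 h (main 0.29), and H4 footprints at 21 h were 0.0496 (main 0.01). Scaling shifted the median of all genes in RNA at 21 h against 6 h from 0.15 to 0.01, and without it 1234 genes were called higher and 514 lower in that contrast, against 712 and 776. In the ratio, calls without scaling were 18 higher and 16 lower at 21 h (main 24 and 14), and 42 and 112 at 21 h against 6 h (main 55 and 39). For 21 h against 6 h, members called numbered 21 in footprints (main 33) and 16 in RNA (main 32) without a filter, and 19 and 13 without a trend. Without a filter, all genes gave 1265 higher and 1414 lower in footprints (main 1554 and 1634) and 425 and 493 in RNA (main 712 and 776). Without a trend they gave 1108 and 1335, and 360 and 430.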

Other observations

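Among genes that are not histones, 10323 were compared with the summed core histone footprints over the 6 footprint libraries, as a description. The 5 most alike by Pearson r were Pja2 (0.996), Clca1 (0.985), Bcl2l13 (0.984), Sptbn1 (0.981) and Matr3 (0.977), and 87 genes had an r over 0.9. The points share libraries and depth, and with 6 of them many genes can reach such values. Matr3, an RNA-binding protein of the nuclear matrix, stood at 176 and 173 RPKM of footprints in PBS, 123 and 123 at 6 h, and 175 and 173 at 21 h. Pja2, a ubiquitin ligase, stood at 53.5 and 46.7 in PBS, 38.2 and 36.3 at 6 h, and 49.4 and 51.4 at 21 h. For both, the 6 h libraries were below those of the other groups, which follows from how the genes were picked.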
